A study of Drosophila melanogaster with 3 samples.

Results

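Of the 8131 sites in the optimal peak list for the Hybrid male rescue protein (Hmr), 1451 had their summit in an intron at a middle distance from transcription starts. A summit was counted here when it lay inside an annotated gene but in no annotated exon, and farther than 1000 bp but at most 5000 bp from the nearest annotated start of any gene or transcript. These intronic summits made up 17.8% of the list (exact 95% interval 17.0% to 18.7%). The optimal list holds the pooled entries of highest signal, and within it the sites were chosen by position alone. Hmr binding was mapped by chromatin immunoprecipitation and sequencing (ChIP-seq) with an antibody to GFP, in 3 biological replicates of whole Drosophila melanogaster embryos aged 0 to 24 h, males and females together. All 3 replicates came from 1 transgenic strain that stably expresses Hmr with GFP at its C terminus, so there was 1 group and no contrast between conditions. The labels do not name the promoter of the transgene, and untagged flies are not analysed here. Whole embryos mix all cell types, so a weak peak in every cell and a strong peak in few cells cannot be told apart.

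Hmr is a DNA-binding protein with MADF domains that causes death or sterility of hybrids between Drosophila melanogaster and its sister species. It works with Lethal hybrid rescue (Lhr) and the heterochromatin protein HP1a, and it is also known at chromosome arm sites near insulator proteins such as BEAF-32. Introns of fly genes, above all first introns, carry many enhancers, which act on a promoter from a distance.

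Most of the strong intronic sites were AT-rich at the summit, and many carried the sequence CACTG to one or both sides of it. The windows below show 8 of the 20 strongest sites, from 100 bp before the summit to 100 bp after it, 5′ to 3′ on the plus strand of dm6, read from the RefSeq sequence of Release 6. They were picked to show the range, from windows with no core to one with several. Capitals mark CACTG or its reverse complement CAGTG, and AATATT, which reads the same on both strands. These 2 cores were chosen after their values were seen. The summit is the middle base of each window.
ush: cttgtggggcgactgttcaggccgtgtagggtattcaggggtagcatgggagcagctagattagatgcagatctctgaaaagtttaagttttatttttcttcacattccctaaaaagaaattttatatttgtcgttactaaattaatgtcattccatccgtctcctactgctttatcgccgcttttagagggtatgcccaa
CG11050: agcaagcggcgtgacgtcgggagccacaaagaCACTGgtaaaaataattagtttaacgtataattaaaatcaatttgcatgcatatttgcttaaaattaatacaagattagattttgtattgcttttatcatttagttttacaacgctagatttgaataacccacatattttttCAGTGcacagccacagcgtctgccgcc
Trl: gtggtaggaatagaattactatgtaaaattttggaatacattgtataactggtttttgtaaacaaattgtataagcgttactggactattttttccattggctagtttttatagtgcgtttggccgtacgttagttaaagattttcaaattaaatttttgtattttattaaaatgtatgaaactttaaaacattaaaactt
Tlk: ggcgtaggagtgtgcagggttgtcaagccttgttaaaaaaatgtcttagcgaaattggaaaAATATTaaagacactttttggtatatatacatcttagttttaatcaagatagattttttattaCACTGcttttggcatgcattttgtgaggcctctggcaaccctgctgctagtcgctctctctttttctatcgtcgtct
trx: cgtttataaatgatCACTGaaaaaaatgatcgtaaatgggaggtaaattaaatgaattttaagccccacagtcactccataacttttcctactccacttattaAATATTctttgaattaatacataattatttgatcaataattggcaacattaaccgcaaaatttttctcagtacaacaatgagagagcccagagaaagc
NFAT: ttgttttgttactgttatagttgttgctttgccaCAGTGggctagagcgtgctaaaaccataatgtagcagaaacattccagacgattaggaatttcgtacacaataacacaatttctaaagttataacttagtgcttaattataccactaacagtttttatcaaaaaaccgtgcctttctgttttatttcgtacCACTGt
for: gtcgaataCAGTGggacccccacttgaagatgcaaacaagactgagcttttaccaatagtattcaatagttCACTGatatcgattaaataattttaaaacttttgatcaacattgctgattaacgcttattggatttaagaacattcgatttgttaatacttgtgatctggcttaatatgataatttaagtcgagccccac
Dys: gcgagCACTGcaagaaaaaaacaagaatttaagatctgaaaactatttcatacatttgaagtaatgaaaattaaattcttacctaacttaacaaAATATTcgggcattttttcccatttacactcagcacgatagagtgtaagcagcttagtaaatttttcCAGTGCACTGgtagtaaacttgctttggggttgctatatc

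The first window, at chr2L:480970-481170 in ush, held neither core, and nor did the Trl window at chr3L:14759420-14759620. The CG11050 window at chr2L:6612604-6612804 had CACTG near one end and CAGTG near the other, with 35.3% G or C over the window, and the NFAT window at chrX:13640402-13640602 was built alike with 34.3%. The CG11050 intron is only 140 bp long. The stretch from the gt after CACTG through the CAG of CAGTG has the same length, so both CG11050 matches may lie at exon borders. Tlk (chrX:3742121-3742321) and trx (chr3R:14283789-14283989) had 1 match to each core. The window in for, at chr2L:3655717-3655917, had 2 matches to CACTG, and that in Dys, at chr3R:19499150-19499350, had 3, with AATATT within a few bases of the summit. G and C made up 40.8% of the ush window and 25.4% of the Trl window. Of the 20 strongest intronic sites, 13 held CACTG within 100 bp of the summit, 5 held AATATT and 15 held at least 1 of them.

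The strongest site of the whole optimal list was one of these intronic summits. It lay in a first intron of ush, which encodes a FOG-family cofactor of GATA factors, 1382 bp upstream of cbt, a zinc-finger gene. Signal is the authors' value for the height of a peak, and its unit is not given in the sources used here, so it is compared only within 1 list. The ush site had a signal of 6656 in the optimal list and of 2167, 2144 and 2326 in replicates 1, 2 and 3, and it ranked 1 in every list. The site in CG11050 had a signal of 6191 in the optimal list and of 1996, 2079 and 2169 in the 3 replicates, and it ranked 2 in every list. Its intron was only 140 bp long, shorter than the peak of 606 bp, so the peak also covers exons. The site in Trl, the gene of GAGA factor, had a signal of 4831 in the optimal list and of 1384, 1834 and 1659 in replicates 1, 2 and 3. It ranked 5 in the optimal list and 4, 5 and 5 in the replicates. The order of these 3 sites was thus the same in every list.

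Below these, ranks spread more between replicates. The site in CG32772 ranked 12 in the optimal list and 20, 18 and 8 in replicates 1, 2 and 3, and that in Tlk, which encodes the Tousled-like kinase, ranked 26 and then 13, 32 and 26. The site in CG12769 ranked 45 overall but 17, 84 and 55 in the replicates, so replicate 1 placed it above the other two. CG9837 followed at rank 47 and CG3726 at rank 60. The chromatin genes trx, which encodes a histone H3 methyltransferase, and Kdm2, which encodes a histone demethylase, held sites at ranks 91 and 104 with signals of 2038 and 1967. Signalling genes followed, with the transcription factor gene NFAT at 1958, the phospholipase C gene norpA at 1918, the cGMP-dependent kinase gene for at 1789 and the MAP kinase cascade gene Raf at 1742. Next were the fatty acid elongase gene Baldspot with 1742, the dystrophin gene Dys with 1661, the mitochondrial carrier gene SCaMC with 1515 and Pits, whose product binds the repressors Ttk69 and Sin3A, with 1434. Hr4, an ecdysone-responsive nuclear receptor gene, had a signal of 1386 and CG32425 had 1375. The Dys site ranked 70, 247 and 217 in replicates 1, 2 and 3, and the CG32425 site 448, 199 and 214. All 20 sites were found among the 8131 strongest entries of every replicate. The Kdm2 and CG32425 summits had another optimal summit 217 bp and 215 bp away.

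**Figure D1:**
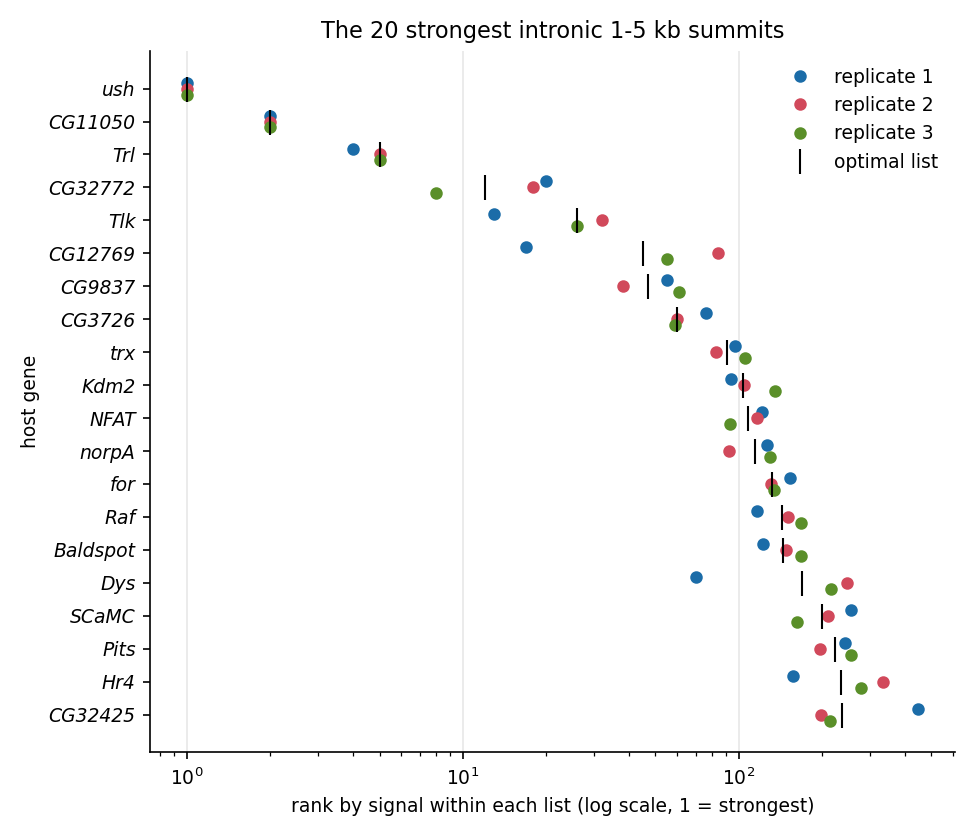
Rank by signal (x axis, log scale) of the 20 strongest intronic summits 1 to 5 kb from a start, by host gene (y axis), in replicates 1 to 3 (points) and the optimal list (tick). The sites in ush and CG11050 ranked 1 and 2 in every list, and the CG12769 site spread from 17 to 84.

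Most of the intronic sites were far weaker than these. Over all 1451 the signal ran from 155 to 6656 with a median of 261 and quartiles of 192 and 403, against medians of 232 for intronic summits over 5 kb away, 236 for intergenic summits over 1 kb away and 308 for summits within 250 bp of a start, called promoter summits here. Of the 100 strongest sites in the list, 9 were intronic at 1 to 5 kb, as were 134 of the 1000 strongest. The median width of their peaks was 456 bp, from 114 to 833 bp. Their distance to a start had a median of 2169 bp. At the edges of the rule, the summits just inside 1000 bp lay in shot and C3G, both 1003 bp from a start, with signals of 171 and 527. Just outside it lay plx at 1000 bp with 322 and Fili at 999 bp with 231. Just inside 5000 bp were Eip75B at 4997 bp with 221 and Sesn at 4992 bp with 364, and just outside were SLO2 at 5009 bp with 305 and bun at 5017 bp with 544.

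Relative to the sequence they could fall in, intronic summits at 1 to 5 kb were denser than those farther out. The sequence that satisfies the rule spans 20.1 Mb over 6 chromosomes. Among the 8131 strongest entries of each replicate, 69.5, 75.4 and 66.2 summits per Mb fell in it in replicates 1, 2 and 3, a mean of 70.4 ± 4.66 (SD, n = 3). Intronic sequence over 5 kb away had 31.0 ± 3.12 per Mb and intergenic sequence over 1 kb away had 24.4 ± 3.28. The ranges of the replicates did not overlap between the 1 to 5 kb class and either of these. In the optimal list the densities were 72.0, 33.2 and 25.4 per Mb, and 312 at promoters. Background entries are the 20064 regions that the authors' relaxed list of the pooled reads holds farther than 500 bp from any optimal summit. They had 225 per Mb in intronic sequence at 1 to 5 kb, 158 over 5 kb and 136 in intergenic sequence, an order like that of the summits over a smaller range. With only the summits matched in both other replicates, the density under the rule was 47.7 per Mb without replicate 2 and 47.9 without replicate 3, since fewer summits were counted. Of the background entries, 4535 (22.6%) met the positional rule, against 17.8% of the optimal summits.

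Within the 1 to 5 kb band, density fell off with distance. It was 92.6 ± 5.74 summits per Mb (SD, n = 3) at 1 to 2 kb, 63.6 ± 4.97 at 2 to 3 kb, 56.8 ± 3.14 at 3 to 4 kb and 52.9 ± 6.27 at 4 to 5 kb. The first of these lay above the rest in every replicate, while those at 3 to 4 kb and at 4 to 5 kb overlapped. Background entries had 239, 224, 217 and 210 per Mb over the same steps. The signal showed no such order, with medians of 265, 252, 273 and 252 in the 4 steps, from 655, 359, 245 and 192 summits.

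**Figure D2:**
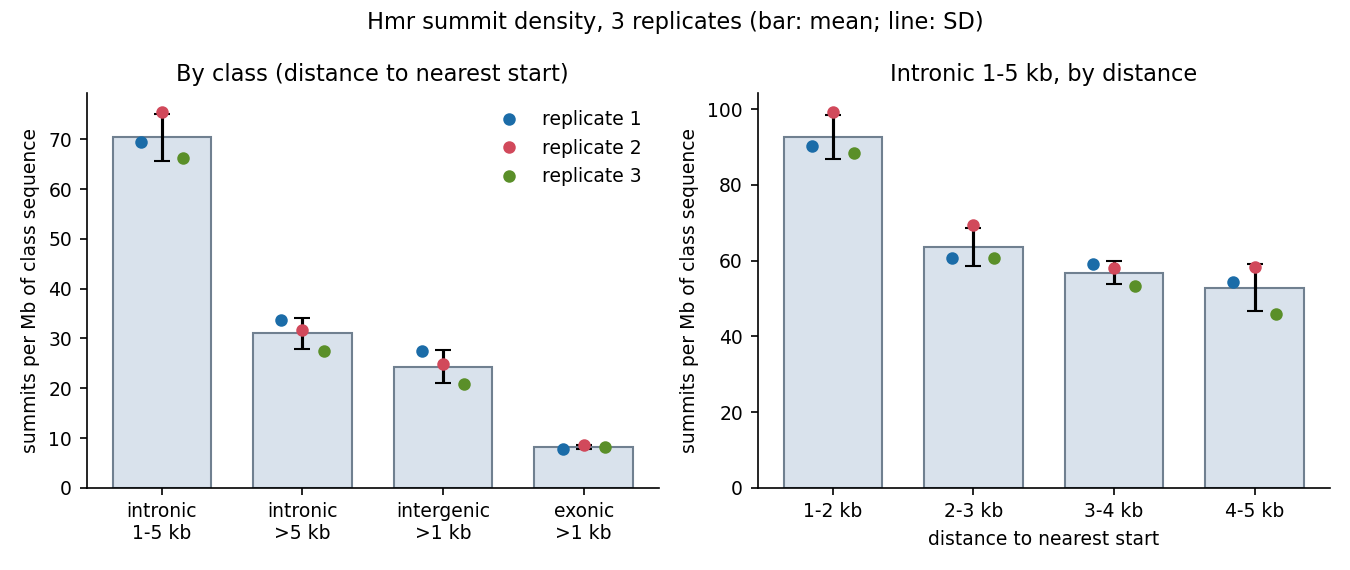
Hmr summits per Mb of the sequence of each class (y axis) among the 8131 strongest entries of each replicate (points), with their mean (bar) and SD (line). Left, intronic summits 1 to 5 kb from a start and 3 other distal classes, and right, the intronic summits by distance, which stood at 92.6 per Mb at 1 to 2 kb and 52.9 at 4 to 5 kb.

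Intronic sites at 1 to 5 kb ranked between promoter sites and the more distal ones. Their median rank in the full lists of replicates 1, 2 and 3 was 4443, 4335 and 4962. Intronic summits over 5 kb away had median ranks of 4682, 5164 and 5730 there, intergenic ones 4554, 5430 and 5762, and promoter summits 3557, 3483 and 3385. A lower number is a stronger place. The median rank of the 1 to 5 kb class minus that of the deep intronic class was −612 ± 325 places (SD, n = 3). Minus that of the intergenic class it was −668 ± 505, with only −111 in replicate 1. Minus that of the promoter class it was 1105 ± 409 places. Each direction was the same in 3 of 3 replicates, with p = 0.25 in the exact two-sided sign-flip permutation test, the smallest that 3 replicates can give, so no such test here could pass 0.05.

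Most strong intronic sites, and few weak ones, stood among the strongest entries of all replicates, as in the optimal list as a whole. Of the 1451 summits, 78.6%, 83.7% and 81.0% had a summit within 200 bp among the 8131 strongest entries of replicates 1, 2 and 3, a mean of 81.1% ± 2.52 (SD, n = 3). All 3 replicates held 864 of them (59.5%, 57.0% to 62.1%), 2 replicates held 367, and 15 were held by none. Of all 8131 optimal summits, 59.7% were held by all 3. In the upper, middle and lower signal ranges of the optimal list cut into equal parts, 97.8% of 414, 77.7% of 515 and 11.3% of 522 were held by all 3. Over all optimal summits in these ranges the shares were 95.7%, 71.4% and 12.1%. The optimal list was made from the same replicates, and a weak site falls out of the strongest entries by its rank, so this slope is in part built in. In the full lists of 30000 entries, 94.1% were found in all 3 replicates. Spearman correlations of signal over the sites matched in both lists were 0.61, 0.68 and 0.76 for replicates 1 and 2, 1 and 3, and 2 and 3, across sites that were chosen by pooled signal.

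Nearly 3 in 4 of the intronic sites lay in a first intron. First introns held 1073 of the 1451 summits (73.9%, exact 95% interval 71.6% to 76.2%), and the share was 73.1%, 74.9% and 74.4% among the strongest entries of replicates 1, 2 and 3 (74.1% ± 0.958, SD, n = 3). Background entries under the same rule lay there in 65.3% (63.9% to 66.7%), and first introns made up 54.8% of the sequence that satisfies the rule. Sites in first introns had a median signal of 264 and those in later introns 252. Their median ranks were 4464 and 4395 in replicate 1, 4227 and 4826 in replicate 2, and 4857 and 5318 in replicate 3. Replicate 1 thus had the opposite order. The host was protein-coding for 1426 of the sites, and 95 lay in more than 1 gene. The nearest start was upstream in the same gene for 838 sites (57.8%), against 51.4% of background entries. For 282 sites (19.4%) it was a downstream alternative start of the host, against 16.7%, and for 331 (22.8%) it was the start of another gene, against 31.9%.

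The start nearest to an intronic site often carried an Hmr summit of its own. A promoter summit lay at the nearest start for 518 of the 1451 sites (35.7%, exact 95% interval 33.2% to 38.2%). Of all 23581 annotated start positions 17.6% had one. The share was 29.4% for intronic summits over 5 kb away, 17.4% for intergenic summits over 1 kb away and 23.1% (21.9% to 24.3%) for background entries under the same rule. It was 37.4%, 37.5% and 32.6% in the upper, middle and lower signal ranges. Sites with a bound nearest start had a median signal of 277 and the others 253. Sites of 1 gene share that start, and the intervals cover counting error only.

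**Figure D3:**
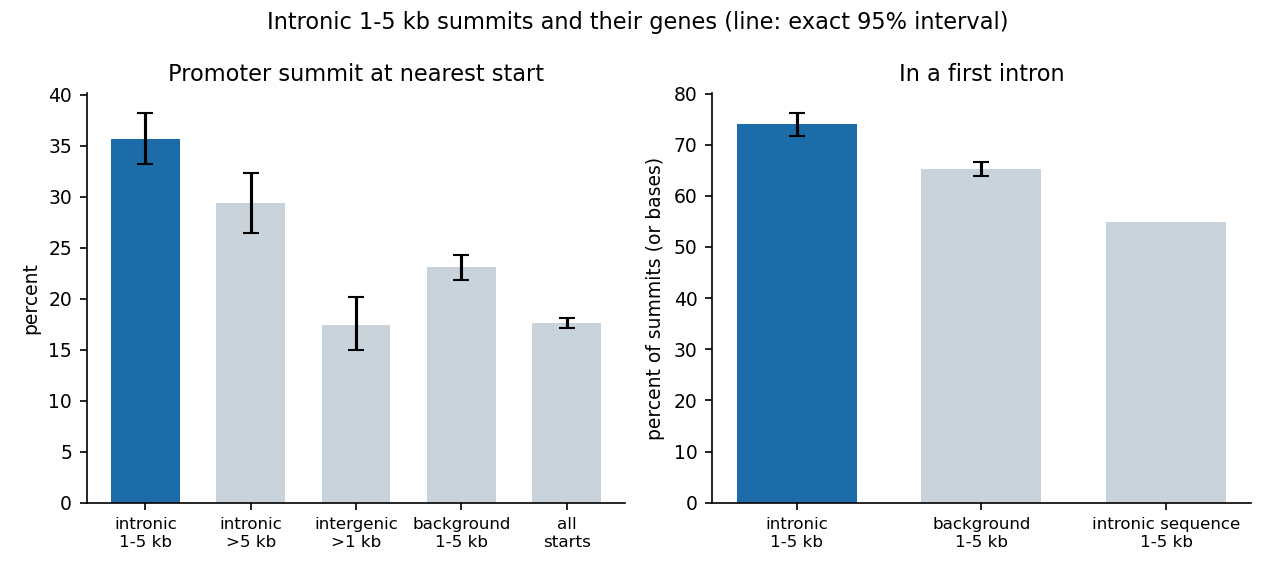
Left, percent of intronic summits 1 to 5 kb from a start whose nearest start has a promoter summit (blue, 35.7%), beside other classes and all starts (grey). Right, percent in a first intron (73.9%), beside background entries under the same rule and the share of bases. Lines are exact 95% intervals.

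Many intronic sites shared a gene with another. The next optimal summit of any class lay a median of 1716 bp away (quartiles 926 and 3888 bp), and within 1000 bp for 398 sites (27.4%). The next intronic site of the same class lay a median of 5016 bp away, and within 1000 bp for 22.2% of the sites. The sites fell in 905 genes, of which 556 had 1 and 349 had 2 or more. The genes with 2 or more held 940 of the sites, so sites are not independent of each other. Of the 6851 protein-coding genes with any intronic sequence 1 to 5 kb from a start, 879 (12.8%) had a site. This share depended on how much such sequence a gene has. It was 0.776% for genes with up to 1 kb of it, 14.3% for 1 to 3 kb, 28.8% for 3 to 10 kb and 51.1% above 10 kb, and background entries lay in 1.66%, 23.5%, 58.0% and 89.6% of the same genes. Counting only peaks above the median signal, 7.36% of the genes had a site.

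The gene with the most sites was shn, which encodes Schnurri, a zinc-finger protein of the Dpp (BMP) pathway. It held 19 intronic sites with signals from 155 to 1246 (median 399), between summits at 11176329 and 11207392 on chromosome 2R, and 12 of the 19 were held by all 3 replicates. Only 5 background entries lay in the same 30.3 kb of its intronic sequence, so here summits outnumbered background. Background entries are by definition over 500 bp from a summit, which leaves less room for them where summits are dense. Of the sites, 15 lay in a first intron. The noncoding gene lncRNA:CR44357 held 11, with a highest signal of 541, and 17 background entries. It overlaps CG1677, and all 7 sites of CG1677 were among these 11. CG32264 held 10 sites with signals up to 921. Eip75B, an ecdysone-induced nuclear receptor gene, held 9 with signals up to 510, beside 20 background entries.

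Besides its strongest site, ush held 7 more, and the median signal of its 8 was 317. Tlk held 8 with a median of 606, none of them with a promoter summit at the nearest start. CHES-1-like, the gene of a forkhead protein, held 7 sites in 11.0 kb of such sequence, with signals from 261 to 1358, and 3 background entries. This was 0.637 sites per kb, close to the 0.628 of shn. All 7 sites of CHES-1-like were in a first intron and 6 were held by all 3 replicates. The chromatin gene tou held 7 sites with signals from 160 to 732, of which 4 were held by all 3 replicates. Pdp1, pnt and shot also held 7 each.

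Genes of the ecdysone response, the steroid pathway that times fly development, and genes of the stress response had the highest share with a site among the 18 lists, which were not tested against each other. Of 14 such genes with sequence under the rule, 10 had a site (71.4%, exact 95% interval 41.9% to 91.6%), against 12.8% of all protein-coding genes. Their median length of such sequence was 14671 bp, however, against 610 bp for all genes, and genes above 10 kb had a site in 51.1%. The strongest sites lay in Hr4 (1386), in EcR, the gene of the ecdysone receptor itself (1183), and in the cyclin-dependent kinase gene Eip63E (670). The EcR site ranked 472, 336 and 258 in replicates 1, 2 and 3. Per Mb of their own intronic sequence under the rule, the ecdysone genes held 138 sites, against 72.0 over all such sequence. Heat shock and stress genes had a site in 5 of 7 (29.04% to 96.3%), or 269 per Mb, with Hsp83, the Hsp90 gene, at 998, the phosphatase gene puc at 503 and the stress factor gene cnc at 446. The median length of sequence under the rule in this list was 4000 bp. Genes with 3 to 10 kb of it had a site in 28.8%, just below the lower bound of that interval.

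Chromatin genes held some of the strongest sites. Polycomb and trithorax genes, which keep developmental genes silent or active, had a site in 5 of 21 (23.8%, 8.22% to 47.2%), an interval that includes the 12.8% of all protein-coding genes, led by Trl (4831), trx (2038) and ph-p (858). They held 11 sites in 47.3 kb, or 233 per Mb, against 72.0 over all sequence under the rule. Genes of insulator and architectural proteins had a site in 4 of 13 (9.09% to 61.4%), with psq (594) and rib (224) after Trl, which is in both lists. The genes of HP1 and its partners had 1 of 14 (7.14%, 0.181% to 33.9%), a site in vig with a signal of 158 that only replicate 2 held. HMG-box genes had 3 of 11 (6.02% to 61.0%), since HmgD and HmgZ overlap and share a site with a signal of 467, and cic had one of 196. Of the GATA and FOG genes, 2 of 6 had a site (4.33% to 77.7%), ush and GATAd (763). The intervals of all 5 lists include 12.8%. The median length of sequence under the rule was 787 bp in the Polycomb and trithorax list, 322 bp in the insulator list, 469 bp in the HP1 list, 3299 bp in the HMG-box list and 6244 bp in the GATA and FOG list.

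In 4 lists of signalling genes, 33.3% to 41.2% of the genes had a site, against 12.8% of all protein-coding genes. The exact 95% intervals were 12.76% to 64.9% for the EGFR list and 9.92% to 65.1% for the Notch list, which include 12.8%. They were 13.9% to 68.4% for the insulin list and 18.4% to 67.1% for the Wnt list. Their median length of sequence under the rule was 3859 bp for the EGFR list, 4346 bp for the Wnt list and 5970 bp for the Notch list, against 610 bp for all genes. Of all protein-coding genes with 3 to 10 kb of it, 28.8% had a site, a share inside the intervals of these 3 lists. EGFR and MAPK pathway genes had 5 of 14, with Raf at 1742, the Ets factor gene pnt at 941 and the gene of the EGFR inhibitor aos at 737. Insulin and TOR pathway genes had 5 of 13, with REPTOR at 704, the insulin receptor gene InR at 570 and S6k at 309. The median length of sequence under the rule in this list was 687 bp. Segment polarity and Wnt genes had 7 of 17, led by the Wnt co-receptor gene arr (545), the Hedgehog receptor gene ptc (494) and the Wnt receptor gene fz2 (320). Notch pathway genes had 4 of 12, led by the coactivator gene mam with 1299, the ubiquitin ligase gene neur with 680 and numb with 177. The mam site ranked 242, 251 and 291 in replicates 1, 2 and 3.

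Lists of tissue and patterning genes gave mixed counts, set against 12.8% of all protein-coding genes and 28.8% of those with 3 to 10 kb of sequence under the rule. The median length of that sequence was 7998 bp in the Hox list, 7481 bp in the neural list, 8139 bp in the axon list, 4781 bp in the muscle list and 4635 bp in the cytoskeleton list. Gap and pair-rule genes had 0 of 8, an interval that reaches 36.9%. Hox genes had 3 of 8, with Abd-B (656), Antp (332) and pb (242). Neural fate genes had 4 of 10, with insc (300), brat (246) and numb. Axon guidance and adhesion genes had 9 of 23, with the guidance ligand genes NetB (600) and sli (398) and the receptor gene fra (512). RNA-binding and splicing factor genes had 9 of 21, with shep (778), bru2 (491) and Rbfox1 (406), and 41.2 sites per Mb. Their median length of sequence under the rule was 22123 bp, and genes above 10 kb held 65.7 sites per Mb. Muscle genes had 4 of 16, led by the transcription factor gene Mef2 (678), whose site ranked 2755, 844 and 540 in replicates 1, 2 and 3. Zasp52 had 212 and the tropomyosin gene Tm1 had 189. Cytoskeleton genes had 6 of 14, with the profilin gene chic (521), shot (511) and the formin gene dia (422).

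**Figure D4:**
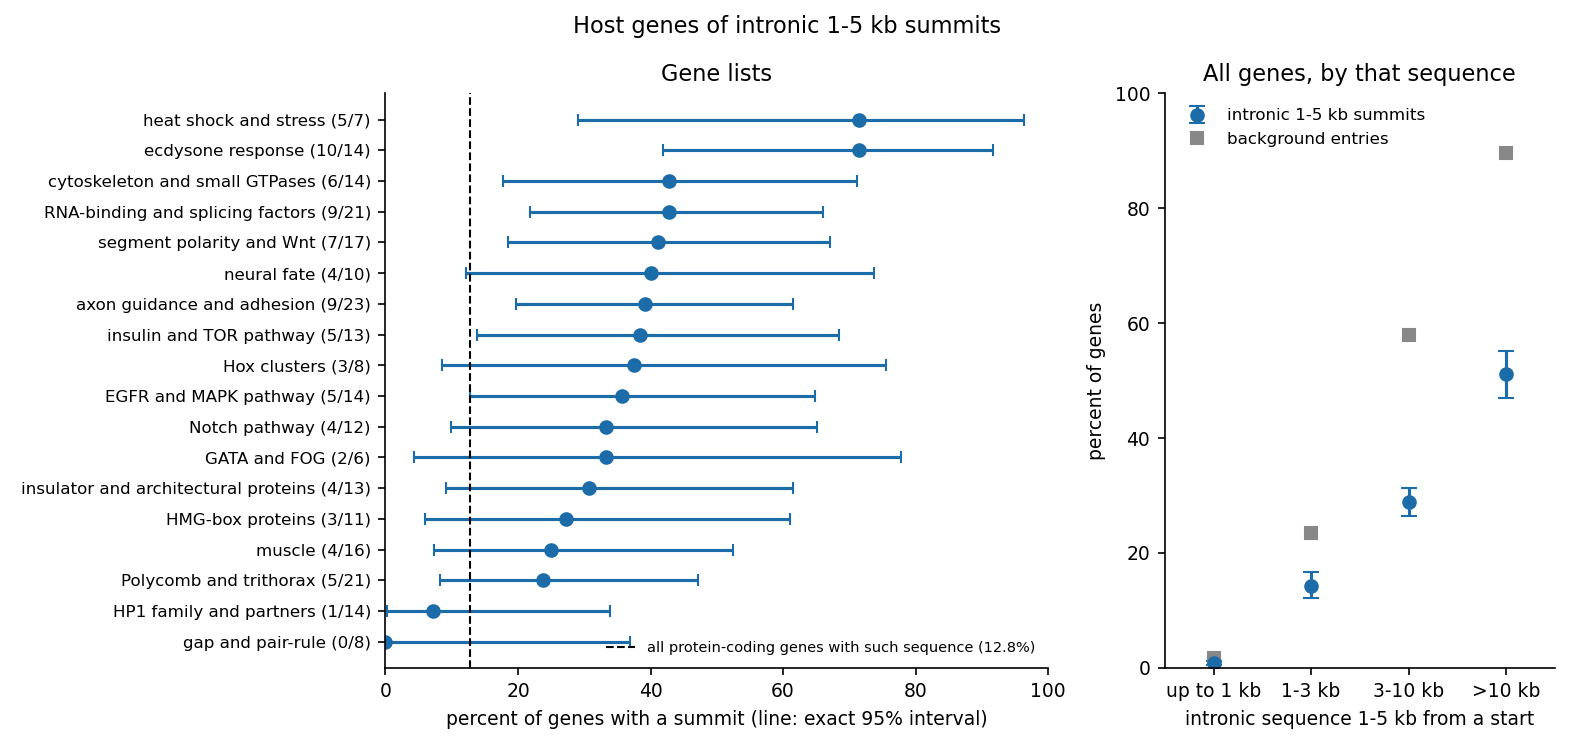
Left, percent of the genes of each list with an intronic summit 1 to 5 kb from a start (x axis; points, with exact 95% intervals as lines), among genes with such sequence, beside 12.8% of all protein-coding genes (dashed). Right, percent of all such genes by the length of that sequence, which was 51.1% above 10 kb for intronic summits (blue) and 89.6% for background entries (grey).

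The AT-rich summits seen in the printed windows held over the whole set. Within 100 bp of the 1451 summits, G and C made up 36.6% of bases, against 41.0% in windows as wide placed 500 bp to the left and right, called flanks here. The difference was −4.25, −4.65 and −3.48 percentage points in replicates 1, 2 and 3 (mean −4.13 ± 0.593, SD, n = 3, lower in 3 of 3, exact sign-flip permutation p = 0.25). Background entries under the same rule had 41.1% against 40.8% in their flanks. The summit value was 35.0%, 36.2% and 38.2% in the upper, middle and lower signal ranges, so the strongest sites had the least G and C. Deep intronic and intergenic summits had 36.0% each, and promoter summits 39.6%. Reads could be placed at these sites, since 99.9% of the 32-mers there occurred once in the genome, and repeats covered 20.6% of bases, against 18.5% in the flanks.

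The shares of housekeeping promoter motifs at the intronic sites lay nearer to those of intronic sequence at large than to those of promoter summits. Of 24 listed motifs, searched on both strands within 100 bp of the summit, the M1BP motif GGTCACACT was found at 2 of the 1451 sites (0.138%), against 6.26% of promoter summits. The Dref motif TATCGATA was also found at 2 sites (0.138%), against 7.92% of promoter summits. The core CGATA of the BEAF-32 motif was found at 21.6% of the sites, against 22.0% of their flanks and 40.7% of promoter summits. In windows of the same width over all intronic sequence under the rule, these 3 were found in 0.0867%, 0.426% and 20.5%, and at deep intronic summits in 0.213%, 0.213% and 18.6%. The Dref motif contains the BEAF-32 core, so these counts overlap.

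Several motifs rich in A and T were more frequent at the summits than in their flanks. TATAAA was found at 32.7% of sites and in 23.0% of flanks, with a difference of 10.4 ± 1.15 percentage points over the replicates (SD, n = 3). It was found in 24.3% of all windows under the rule, at 36.3% of deep intronic summits and at 39.2% of intergenic summits. The motif of GATA factors, which is the letters GATA after A or T and before A or G, stood at 42.7% against 33.7%, a difference of 9.16 ± 0.893 over the replicates, and in 32.3% of all windows. The forkhead motif, TATTTAC or TGTTTAC, stood at 18.9% against 10.4%, a difference of 9.45 ± 1.76, and in 10.1% of all windows. Deep intronic summits had the GATA motif in 42.9% and the forkhead motif in 18.7%, much like these sites, and intergenic summits in 35.7% and 13.7%. The homeodomain motif TAATTA, the Caudal motif TTTATG and the Su(Hw) motif were higher in every replicate by 3.56 ± 1.60, 2.05 ± 0.733 and 0.852 ± 0.171 points, and were found in 14.9%, 24.3% and 1.39% of all windows under the rule. These were the 6 of 24 that were higher in all 3 replicates. Another 7 were lower in all 3, namely the E-box CANNTG at 62.8% against 65.8%, its Myc form CACGTG, the Ets motif CCGGAAA or CCGGAAG at 1.86% against 2.79%, and the motifs of Grainyhead (AACCGGTT), Runt (AACCACA), CREB (TGACGTCA) and Tramtrack (AGGATAA). The other 11 had no common direction. Besides the 3 above, these were the GAGA factor motif GAGAGA, the repeat motif CACACA, the CTCF motif AGGTGGCGC, the Zelda motif CAGGTA, the AP-1 motif TGACTCA or TGAGTCA, the Stat motif TTCNNNGAA and the core promoter motifs Ohler 6 and Ohler 7. The exact sign-flip permutation p was 0.25, the smallest possible, for each of the 6 and of the 7. It was 0.5 or more for each of the other 11. G and C content was also lower at the summits than in the flanks, and its part in these shares was not tested.

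The 2 cores were named after the 8-base sequences with the largest excess at the summits, scaled to their count in the flanks, had been seen. The 8-base sequences found at 15 or more of the 811 sites on 2L, 2R and 3L were ranked there by this scaled excess. The first 20 were then measured at the 640 sites on 3R and X. On 3R and X, too, each of the 20 stood at more summits than flanks. Of the 20, 7 contained CACTG and 5 contained AATATT, which follows from that choice of cores. CACTGAGA stood at 2.50% of the sites on 3R and X, against 0.469% of flanks, and AATATTTA at 8.91% against 4.22%. Over all chromosomes, background entries under the same rule held CACTGAGA in 1.94% and AATATTTA in 5.42%. Promoter summits held them in 1.02% and 7.25%.

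The CACTG core was found at 638 of the 1451 sites (44.0%, exact 95% interval 41.4% to 46.6%) and in 26.8% of flanks. Over the replicates the difference was 15.3 ± 0.915 percentage points (SD, n = 3). In windows of 50 bp to each side it was 5.66 points, and against background entries in place of flanks 7.44 points. Background entries under the same rule had it in 35.6%, all windows under the rule in 27.9%, deep intronic summits in 45.7%, intergenic summits in 50.2% and promoter summits in 45.0%. AATATT was found at 459 sites (31.6%) and in 16.3% of flanks, with a difference of 13.9 ± 1.03 points. Background entries had it in 19.4%, all windows under the rule in 18.4%, deep intronic summits in 33.3%, intergenic summits in 31.3% and promoter summits in 23.2%. At least 1 of the 2 cores stood at 63.1% of the sites, in 38.6% of flanks, in 47.5% of background entries, at 63.8% of deep intronic summits and at 65.6% of intergenic summits.

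The 2 cores took different places around the summit. CACTG was less dense at the summit than beside it, with 2.17 ± 0.208 matches per kb within 25 bp, 3.38 ± 0.0331 at 50 to 100 bp and 1.71 ± 0.0291 at 300 to 500 bp (SD over 3 replicates). The values at 50 to 100 bp lay above those within 25 bp in every replicate. AATATT was densest near the summit, with 2.22 ± 0.110 matches per kb within 25 bp and 2.06 ± 0.0872 at 25 to 50 bp. It fell to 1.55 ± 0.111 at 50 to 100 bp and 0.833 ± 0.0176 at 300 to 500 bp. In replicate 2 it stood at 2.09 within 25 bp and 2.13 at 25 to 50 bp, so the replicates did not share the order of these zones. In the optimal list, CACTG stood at 2.15 per kb within 25 bp and 3.68 at 50 to 100 bp of the intronic summits, and at 2.86 and 3.05 at promoter summits. Background entries under the same rule had 2.09 and 2.29. The low G and C content was centred on the summit as well, at 35.1% ± 0.372 within 25 bp and 41.9% ± 0.462 at 300 to 500 bp. Of the windows printed above, those of CG11050 and NFAT have CACTG to both sides of the summit but no AATATT, and those of ush and Trl have neither core.

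**Figure D5:**
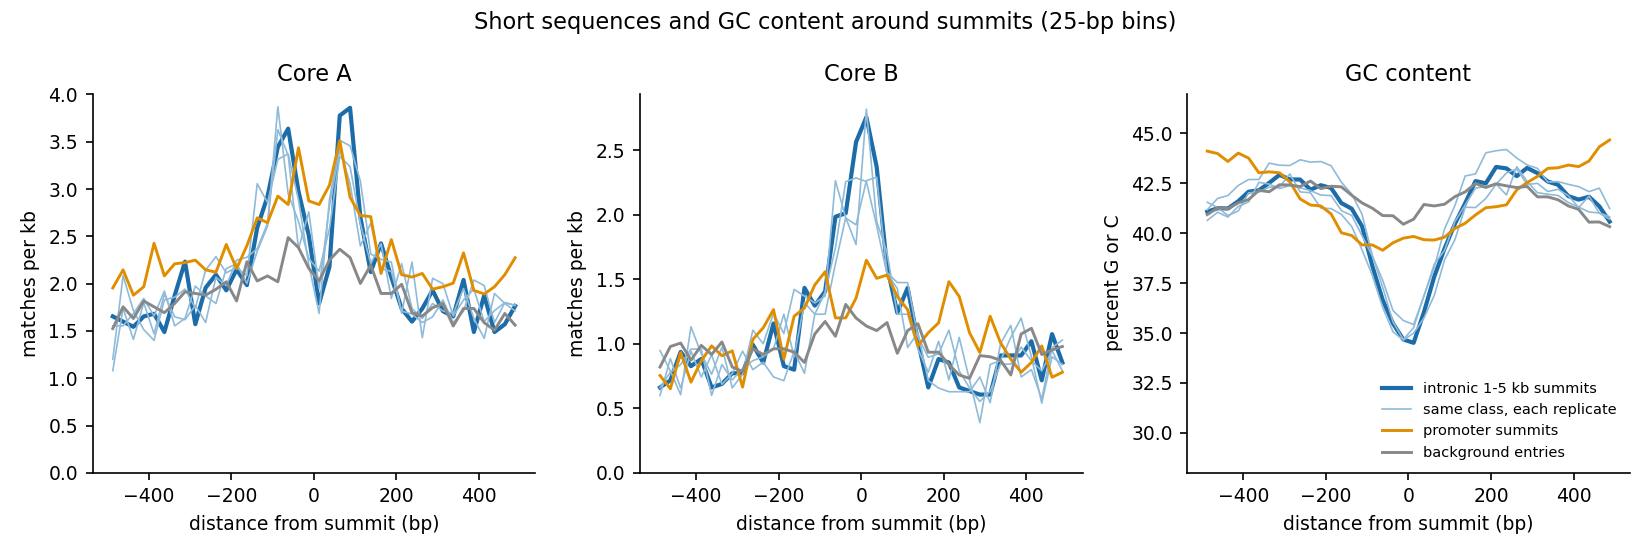
Matches per kb to CACTG (core A, left) and AATATT (core B, middle), and percent of G or C (right), by distance from the summit in 25-bp bins (x axis). Thick blue, intronic summits 1 to 5 kb from a start, thin blue, the same class in each replicate, orange, promoter summits, and grey, background entries under the same rule. Core A has 2 maxima beside the intronic summit and core B has 1 at it.

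The sites were spread over the 5 large arms and absent from chromosome 4. Chromosome 2R had the most per Mb of sequence under the rule, 80.2, and X had 78.3. The arms 3R, 3L and 2L had 71.5, 70.0 and 65.5 per Mb. The SD over replicates was between 2.30 and 6.94 per Mb within an arm, and the ranges of the replicates overlapped between most pairs of arms. They did not overlap for 2R and 2L, 2R and 3R, or X and 2L. The small, largely heterochromatic chromosome 4 has 0.267 Mb of such sequence and held 0 sites in the optimal list and among the strongest entries of every replicate, which allows up to 11.2 per Mb when 3 counts are taken as the limit for a count of 0. Background entries were also sparse there, at 18.7 per Mb, and 83.0% of its 32-mers under the rule were unique, against 94.9% over all such sequence.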

How the data were processed

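Peak lists in dm6 of ChIP-seq for GFP-tagged Hmr in 3 embryo replicates were used as deposited. Per the deposited text files, the authors called relaxed peak lists per replicate and on the pooled replicates, and kept an optimal list by the irreproducible discovery rate. The deposited signal column is the authors' peak signal. The aligner, caller and threshold, not given in the sources used here, remain unnamed, and sequencing depth is unknown. The dm3 lists and the p- and q-value columns were not used.

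Summits were placed on Ensembl release 115 gene models (BDGP6, FlyBase identifiers, 18164 genes without transposable elements, of which 13945 protein-coding) and on the RefSeq sequence of Release 6. A replicate match is a summit within 200 bp. Windows reached 100 bp to each side of a summit, with flanks centred 500 bp away. Intervals follow Clopper and Pearson at 95% and hold counting error only. Replicate values were compared by exact sign-flip permutation. Python 3.11.15, NumPy 2.4.6, pandas 2.3.3, SciPy 1.17.1 and matplotlib 3.10.9 were used, and the steps were tested on simulated data.

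The set of sites, the 18 gene lists, the 24 motifs and the tests were chosen with earlier results of these data known. Of the list symbols, 299 matched directly, 6 through synonyms, and 10 matched no gene and were left out. Among the 10 were Dl of the Notch list, Tor of the insulin and TOR list and Star of the EGFR list. The counts of these lists do not cover them. The text names the 20 strongest sites, the 8 genes with the most sites (and those tied with them), for each gene list at most 3 genes by their strongest site, and 2 sites at each side of each distance limit. Sequences are of strong sites within 150 bp of the summit. Alternatives were stricter peaks, each replicate left out, other positions, distances, windows and flanks, and protein-coding gene models.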

Additional observations from a re-analysis of the deposited data

How the results depend on the processing

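No paired analysis of groups was possible because there is 1 group. Of the alternative values, 91 kept their direction or stayed within the tolerance, 24 moved and none turned round. Only peaks above the median signal gave an intronic share of 16.7%, a density of 33.6 per Mb, a promoter summit at the nearest start in 24.4%, first introns in 75.3%, host genes at 7.36% and a match in all replicates for 95.6%. Fewer peaks were counted there by construction. Leaving out each replicate, which keeps summits matched in both others, gave a share of 17.1% to 17.98%, a density of 47.7 to 51.3 per Mb (an alternative added after seeing the data), bound nearest starts in 25% to 32.5%, first introns in 74.4% to 75.1%, host genes at 9.59% to 10.2% and a match for 66.2% to 71.3%. Without 1 replicate the mean rank difference ran from −798 to −503 to deep intronic, from −947 to −455 to intergenic and from 869 to 1232 to promoter summits, the G and C difference from −4.45 to −3.86 points, and 7 to 10 motifs were higher at summits. Protein-coding gene models gave 77.1 per Mb and 74.9% in first introns. Counting starts within 500 bp gave 46.0% bound nearest starts. Matches within 100 bp and 500 bp gave 53.0% and 63.1%. With flanks 1000 bp away 10 motifs were higher. The causes of these shifts were not tested beyond the smaller or larger number counted. The CACTG difference fell to 5.66 points in windows of 50 bp to each side and to 7.44 against background entries. Depth is unknown, so what is missed among weak peaks cannot be given.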
